A study of Mus musculus with 10 samples.

Results

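The genes described here are those of the MHC class I antigen-presentation machinery and of the immunoproteasome. They were taken by name from the deposited gene table as H2-K1, H2-D1, B2m, Tap1, Tap2, Tapbp, Psmb8, Psmb9, Psmb10 and Nlrc5, which is 10 of 57825 listed genes. Each name occurred once in the table, and all 10 genes passed the filter on low values. The names were chosen with earlier results of these data known.

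RNA of purified CD8+ T cells was sequenced in 10 samples, 5 from co-culture with 4T1 tumor cells (CD8+4T1) and 5 from the same co-culture with sodium acetate (CD8+4T1+NaAc). According to the methods, T cells were taken from the spleens of female Balb/c mice of 7 to 8 weeks, and cells of both groups were activated for 12 h on plate-bound anti-CD3 with anti-CD28 and IL-2. They were then kept for 24 h without or with 5 mM sodium acetate (NaAc) and co-cultured with 4T1 cells for 48 h, and the labels give day 3 for every sample. 4T1 is a mammary carcinoma cell line of Balb/c origin, so tumor and T cells both carry class I genes of the same mouse strain. Neither the labels nor the methods say that the 5 samples of a group came from separate mice or cultures, so p-values measure the spread between these samples, which may be technical.

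MHC class I molecules display peptides of the cell's own proteins on its surface, where CD8+ T cells read them. Each molecule is a heavy chain bound to beta-2-microglobulin and a peptide. The peptide is cut by the proteasome, carried into the endoplasmic reticulum by the TAP transporter and loaded with the help of tapasin. In lymphocytes and in cells exposed to interferon-gamma, inducible catalytic subunits replace the constitutive ones and form the immunoproteasome, and NLRC5 acts as the transactivator of class I genes.

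The promoter sequences of the heavy chains, of the light chain and of the Psmb9 and Tap1 pair are shown because H2-D1 and B2m changed in opposite directions, H2-K1 is the other classical heavy chain, and Psmb9 and Tap1 lie head to head. They were read from the RefSeq promoter windows of GRCm38.p6, which held 8 of the 10 genes (all but Tap2 and Nlrc5). The stretches cover the 175 bases before the start of H2-K1 (chr17:34000348-34000522, minus strand), H2-D1 (chr17:35262919-35263093, plus strand) and B2m (chr2:122147512-122147686, plus strand), and the 225 bases between the starts of Psmb9 and Tap1 (chr17:34187331-34187555, plus strand). RefSeq gives the C57BL/6J genome, whose class I alleles differ from those of Balb/c. For H2-K1 the first of the 2 listed windows was used. Capitals mark matches on either strand to the motifs spelled out after the sequences.
H2-K1: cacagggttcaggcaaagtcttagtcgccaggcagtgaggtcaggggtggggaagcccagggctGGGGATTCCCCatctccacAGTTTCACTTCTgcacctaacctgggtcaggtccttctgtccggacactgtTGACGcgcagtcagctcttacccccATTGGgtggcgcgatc
H2-D1: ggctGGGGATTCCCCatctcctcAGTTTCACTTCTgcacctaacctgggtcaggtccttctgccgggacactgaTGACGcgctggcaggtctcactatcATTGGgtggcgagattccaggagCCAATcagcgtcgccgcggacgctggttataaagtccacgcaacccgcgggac
B2m: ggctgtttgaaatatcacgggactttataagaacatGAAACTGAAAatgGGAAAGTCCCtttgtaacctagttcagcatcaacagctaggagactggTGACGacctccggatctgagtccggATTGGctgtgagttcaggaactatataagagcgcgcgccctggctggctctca
Psmb9 to Tap1: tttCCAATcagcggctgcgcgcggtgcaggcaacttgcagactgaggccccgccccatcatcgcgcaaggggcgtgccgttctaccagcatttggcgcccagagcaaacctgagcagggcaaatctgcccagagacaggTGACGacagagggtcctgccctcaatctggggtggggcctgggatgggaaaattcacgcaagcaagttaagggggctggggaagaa

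The H2-K1 and H2-D1 stretches were laid over each other without gaps at the shift with the most matches, which was 60 bases. At this shift the stretches had the same base at 102 of 115 positions (88.7%), and the other bases were not compared. Both held GGGGATTCCCC, the letters of the kappa B element of class I enhancer A, and AGTTTCACTTCT, those of the interferon-stimulated response element beside it. The letters of both were read from the H2-K1 window after the sequences were seen, so their presence in that window was fixed by the choice. They occur in 10 (0.0304%) and 11 (0.0335%) of 32851 mouse promoter windows of 300 bases, counted on both strands. The windows of H2-K1 and H2-D1 are among these, so the shares cannot be set beside those of the motifs chosen beforehand. The B2m promoter held neither. It did match a looser motif of each kind, chosen beforehand, and neither looser motif matched in the H2-K1 or H2-D1 windows. It held GAAACTGAAA at -139 to -130 relative to the start, a match to the core of the interferon-stimulated response element, that is GAAA and GAAA with any 2 bases between them, which occurs in 3.44% of all windows. It also held GGAAAGTCCC at -126 to -117, a match on the other strand to a kappa B-like motif, that is GGG and TTCC with any 3 bases between them, which occurs in 5.56% of all windows. H2-K1, H2-D1, B2m and the Psmb9 and Tap1 stretch each held TGACG, a part of the X2 box that occurs in 20.8% of all windows. Each of these stretches also held the NF-Y box CCAAT, which occurs in 37.4% of all windows. No motif overlapped another in the printed stretches. In the windows not printed, Tapbp held CCAAT, Psmb8 held TTCNNNGAA, a GAS-like motif found in 8.30% of windows, and the letters searched were not in the window of Psmb10.

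The heavy chain gene H2-D1 rose and the light chain gene B2m fell with sodium acetate. Of the 10 genes, 2 rose (H2-D1 and Nlrc5), 5 fell (B2m, Tap2, Psmb8, Psmb9 and Psmb10) and 3 did not pass the test (H2-K1, Tap1 and Tapbp). The test was limma on log2(FPKM + 0.1) with Benjamini-Hochberg adjustment over the 15710 genes whose mean FPKM reached 0.5, and a gene was called at an adjusted p under 0.05. FPKM are fragments per kilobase of the listed gene length, scaled to the fragments of the sample. By this rule 36.5% of all genes tested were called, 17.6% higher and 19.0% lower. The groups did not overlap for 3 of the 10 genes, all lower, against 13.3% lower and 13.1% higher among all genes tested. The changes were small: the log2 fold changes lay between -0.61 and 0.42, with a median of -0.20, against a median of -0.02 over all genes tested. In bulk RNA, fewer cells of a type and less RNA of a gene per cell cannot be told apart, and this holds for every gene given here.

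**Figure D1:**
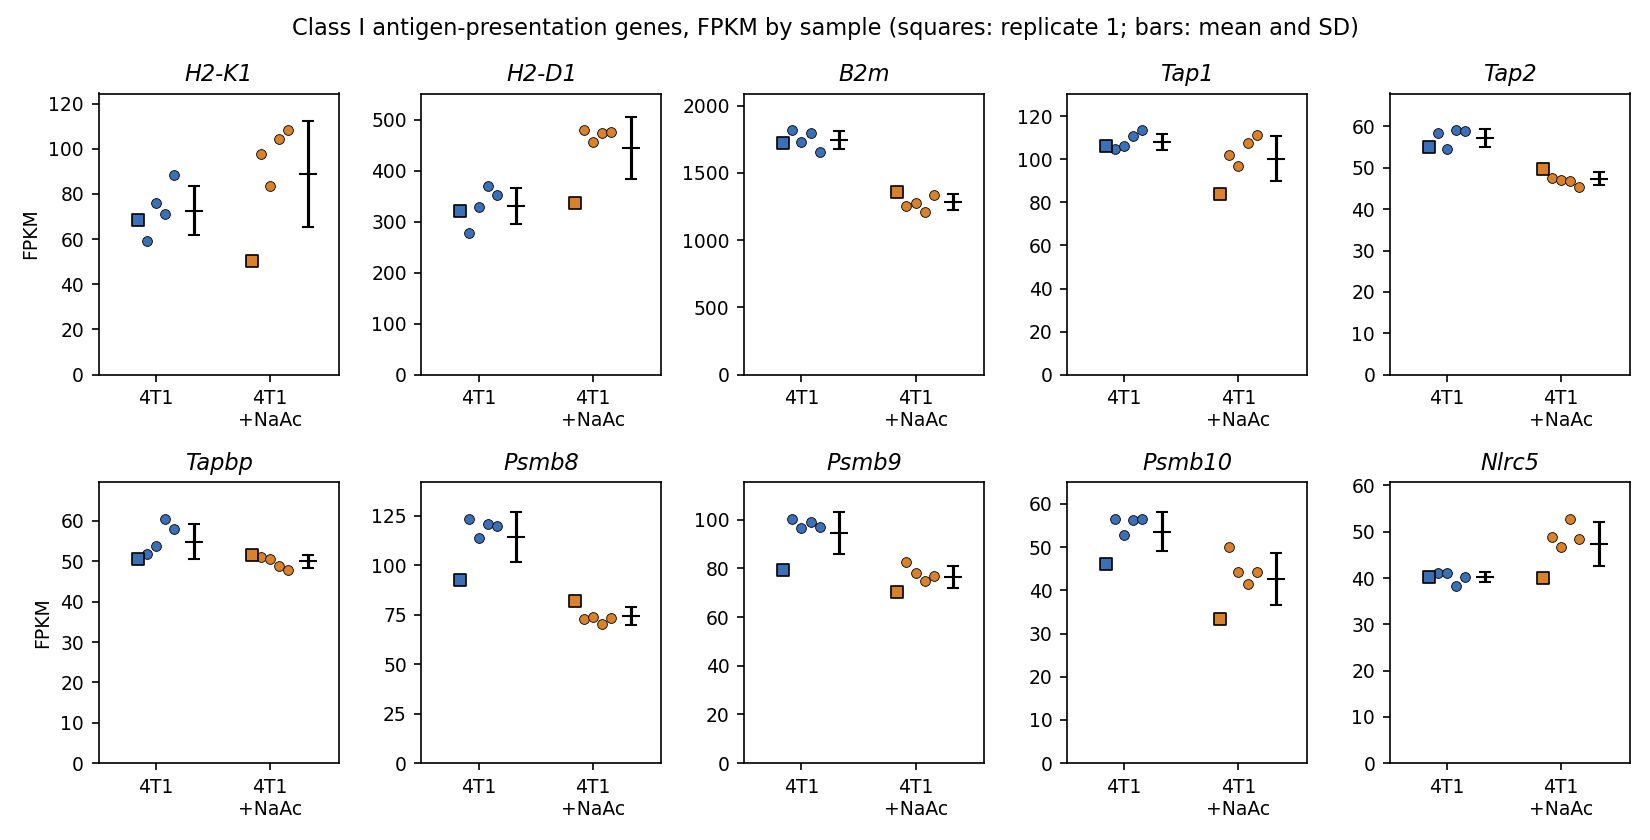
FPKM of the 10 genes in each sample (y axis, from 0), with CD8+4T1 in blue and CD8+4T1+NaAc in orange; squares are replicate 1 of each group and bars give the mean and SD of 5 samples. The groups are apart for B2m, Tap2 and Psmb8, and CD8+4T1+NaAc replicate 1 lies below the other 4 samples of its group for H2-K1, H2-D1 and Nlrc5.

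H2-D1 encodes the heavy chain of the H2-D molecule. Its FPKM in CD8+4T1 were 321, 279, 328, 371 and 353 in replicates 1 to 5. With sodium acetate they were 337, 479, 457, 473 and 476. All CD8+4T1+NaAc samples except replicate 1 lay above every CD8+4T1 sample. The mean rose from 330.3 ± 35.0 to 444 ± 60.9 FPKM (SD, n = 5; log2 fold change 0.42, standard error 0.11, limma adjusted p = 0.0124; exact permutation test, two-sided, p = 0.0238).

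H2-K1 encodes the H2-K heavy chain. Its FPKM were 68.3, 59.0, 75.8, 71.3 and 88.5 in CD8+4T1. The CD8+4T1+NaAc samples had 50.5, 97.8, 83.3, 104 and 108 FPKM. Replicate 1 of CD8+4T1+NaAc was the lowest of all 10 samples, and 3 of the other 4 were above every CD8+4T1 sample. The log2 fold change of 0.25 (standard error 0.20, 95% confidence interval -0.19 to 0.69) did not pass the test (limma adjusted p = 0.352). Without CD8+4T1+NaAc replicate 1 it was 0.44 and passed (limma adjusted p = 0.0106). Class I heavy chains are a family of near-identical genes between which reads can be split or lost. The reference alleles may not be those of Balb/c. H2-L, another class I gene looked for, is not among the listed genes, so any reads of it have no entry of their own. The levels of H2-K1 and H2-D1 and their changes are therefore uncertain.

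B2m encodes beta-2-microglobulin, the light chain that every classical class I molecule needs. It was the most abundant of the 10 genes and ranked 11 among all listed gene names by mean FPKM. Its values in CD8+4T1 were 1722, 1818, 1729, 1794 and 1653 FPKM. With NaAc the values were 1357, 1254, 1275, 1207 and 1332 FPKM. Every CD8+4T1+NaAc sample lay below every CD8+4T1 sample. The mean fell from 1743 ± 64.9 to 1285 ± 60.2 FPKM (SD, n = 5), and it fell by 26.3% (log2 fold change -0.44, standard error 0.06, limma adjusted p = 0.000172). Scaled to the 4 genes of the CD3 complex, an alternative chosen after seeing the data and of which Cd3d, Cd3e and Cd3g themselves fell, the log2 fold change of B2m was -0.08 and did not pass (limma adjusted p = 0.318).

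The ratio of heavy to light chain transcripts within a sample does not depend on the scaling of the sample. H2-D1 amounted to 0.187, 0.153, 0.190, 0.207 and 0.214 of the B2m FPKM in CD8+4T1. The CD8+4T1+NaAc ratios were 0.248, 0.382, 0.358, 0.392 and 0.357. The groups did not overlap, and the log2 difference of 0.86 passed an exact permutation test adjusted over the 9 ratios compared (two-sided, p = 0.00794, adjusted p = 0.0357). It no longer passed without CD8+4T1 replicate 2, 4 or 5 or CD8+4T1+NaAc replicate 3, 4 or 5 (exact permutation test, adjusted p = 0.0571 to 0.0714). The groups stayed apart in these cases, and the p-values of this test are coarser with fewer splits. The lost call alone therefore does not show that the result depends on these samples. The difference itself stayed at 0.79 to 0.98 with each sample left out in turn. For H2-K1 to B2m the mean ratio was 0.0419 ± 0.00772 and 0.0696 ± 0.0197 (SD, n = 5; log2 difference 0.69, exact permutation p = 0.0397, adjusted p = 0.0595), and without CD8+4T1+NaAc replicate 1 the difference was 0.90 and passed (exact permutation test, adjusted p = 0.0119). The ratio of H2-K1 to H2-D1 differed by -0.17 on the log2 scale, which did not pass (exact permutation p = 0.222). With each sample left out in turn this difference was -0.23 to -0.08.

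Among the genes of peptide transport and loading, Tap2 alone passed the test. Tap2 encodes a subunit of the TAP peptide transporter. Its FPKM were 55.1, 58.3, 54.4, 59.1 and 58.8 in CD8+4T1. The 5 samples of CD8+4T1+NaAc held 49.7, 47.6, 47.1, 46.8 and 45.4 FPKM. The groups did not overlap, and the mean fell by 17.2% with sodium acetate (log2 fold change -0.27, standard error 0.04, limma adjusted p = 0.000723). The call was lost after rescaling to the same total (log2 fold change -0.09, limma adjusted p = 0.138) and scaling to T cell markers (-0.10, adjusted p = 0.411). Scaled to the CD3 complex the value was 0.09 (limma adjusted p = 0.243). The call was kept when samples were scaled by the median ratio of their genes (-0.29, limma adjusted p = 0.000525).

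Tap1 encodes the partner subunit of Tap2 in the transporter. It had 106, 105, 106, 111 and 114 FPKM in CD8+4T1. With NaAc it had 84.0, 102, 97.1, 107 and 111 FPKM. The groups overlapped, and the log2 fold change of -0.12 (interval -0.28 to 0.05) did not pass (limma adjusted p = 0.245). The ratio of Tap1 to Tap2 was 1.90 ± 0.0631 in CD8+4T1 and 2.13 ± 0.286 in CD8+4T1+NaAc (SD, n = 5), a log2 difference of 0.16 that did not pass either (exact permutation p = 0.135, adjusted p = 0.152). Without CD8+4T1+NaAc replicate 1, which lay below every CD8+4T1 sample, it was 0.24 and passed (exact permutation test, adjusted p = 0.0119).

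Tapbp encodes tapasin, which tethers the class I molecule to the transporter. It had 50.6, 51.7, 53.7, 60.6 and 58.0 FPKM in CD8+4T1. The CD8+4T1+NaAc samples had 51.7, 51.1, 50.6, 48.9 and 47.8 FPKM. The groups overlapped, with a log2 fold change of -0.13 (interval -0.26 to -0.01) that did not pass in limma (adjusted p = 0.0927), while the exact permutation test of this single gene gave p = 0.0317. Tapbp overlaps Zbtb22 on the same strand over 3422 bases, and how reads of the overlap were counted is not given in the sources used here.

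All 3 inducible catalytic subunits of the immunoproteasome fell in the FPKM as listed, and of these Psmb8 still passed after rescaling to the same total. Psmb8 is also called LMP7. Its FPKM were 92.6, 124, 114, 121 and 120.2 in CD8+4T1. With NaAc the values were 82.2, 73.1, 73.8, 70.5 and 73.3. The groups did not overlap, although replicate 1 was the lowest sample of CD8+4T1 and the highest of CD8+4T1+NaAc. The mean fell from 114 ± 12.6 to 74.6 ± 4.47 FPKM (SD, n = 5), and it fell by 34.8% (log2 fold change -0.61, standard error 0.08, limma adjusted p = 0.000249).

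Psmb9, also called LMP2, had 79.5, 100.4, 96.6, 98.9 and 96.9 FPKM in CD8+4T1. The 5 samples of CD8+4T1+NaAc held 70.5, 82.6, 78.2, 74.9 and 76.7 FPKM. Replicate 1 of CD8+4T1 was the only sample of its group within the range of the other group. The log2 fold change was -0.30 (standard error 0.07, limma adjusted p = 0.00713). The call was lost after rescaling to the same total (-0.12, limma adjusted p = 0.109) and scaling to T cell markers (-0.12, adjusted p = 0.181). Scaled to the CD3 complex the value was 0.06 (limma adjusted p = 0.368). The call was kept with scaling by the median ratio (-0.32, limma adjusted p = 0.00617).

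Psmb10, also called MECL-1, had 46.1, 56.5, 52.7, 56.2 and 56.6 FPKM in CD8+4T1. With NaAc it had 33.3, 49.9, 44.1, 41.4 and 44.2 FPKM. Replicate 2 of CD8+4T1+NaAc lay above replicate 1 of CD8+4T1, and the other samples of the groups were apart. The log2 fold change was -0.34 (standard error 0.10, limma adjusted p = 0.0235), and it no longer passed when CD8+4T1 replicate 2 (-0.32, adjusted p = 0.0546), 4 (-0.32, adjusted p = 0.0532) or 5 (-0.32, adjusted p = 0.0548) or CD8+4T1+NaAc replicate 4 (-0.33, adjusted p = 0.050001) was left out. It also did not pass after rescaling to the same total (-0.16, limma adjusted p = 0.174) or scaling to T cell markers (-0.16, adjusted p = 0.149). Scaled to the CD3 complex the value was 0.02 (limma adjusted p = 0.835). The call was kept with scaling by the median ratio (-0.36, limma adjusted p = 0.0207).

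Each inducible subunit replaces a constitutive one in the assembled proteasome: Psmb8 takes the place of Psmb5, Psmb9 that of Psmb6 and Psmb10 that of Psmb7. Of these 3 constitutive genes, Psmb7 fell from 55.2 ± 5.90 to 34.0 ± 1.94 FPKM (SD, n = 5; log2 fold change -0.69, standard error 0.08, limma adjusted p = 8.9e-05). Psmb5 (log2 fold change -0.05, interval -0.34 to 0.24) and Psmb6 (-0.09, interval -0.28 to 0.10) did not pass, with limma adjusted p of 0.791 and 0.446.

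The 3 ratios of inducible to constitutive subunit did not move together. Psmb9 to Psmb6 went from 1.03 ± 0.0527 to 0.890 ± 0.0638 (SD, n = 5), a log2 difference of -0.21 (exact permutation p = 0.0159, adjusted over 9 ratios p = 0.0476). It no longer passed without CD8+4T1 replicate 1, 2, 4 or 5 or CD8+4T1+NaAc replicate 3, 4 or 5 (adjusted p up to 0.0714). With fewer splits the p-values are coarser, so the lost call alone does not show a dependence on these samples. The difference itself stayed at -0.24 to -0.18 with each sample left out in turn. Psmb8 to Psmb5 went from 1.8 ± 0.256 to 1.23 ± 0.290, and its log2 difference of -0.56 missed the threshold after adjustment (exact permutation p = 0.0317, adjusted p = 0.0571). Psmb10 to Psmb7 went from 0.973 ± 0.0444 to 1.26 ± 0.175, a difference in the other direction of 0.36 with the same p-values. Replicate 1 of CD8+4T1+NaAc lay within the CD8+4T1 range for the Psmb8 and Psmb10 ratios. Without it the log2 differences were -0.69 and 0.45, and both passed (exact permutation test, adjusted p = 0.0119).

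**Figure D2:**
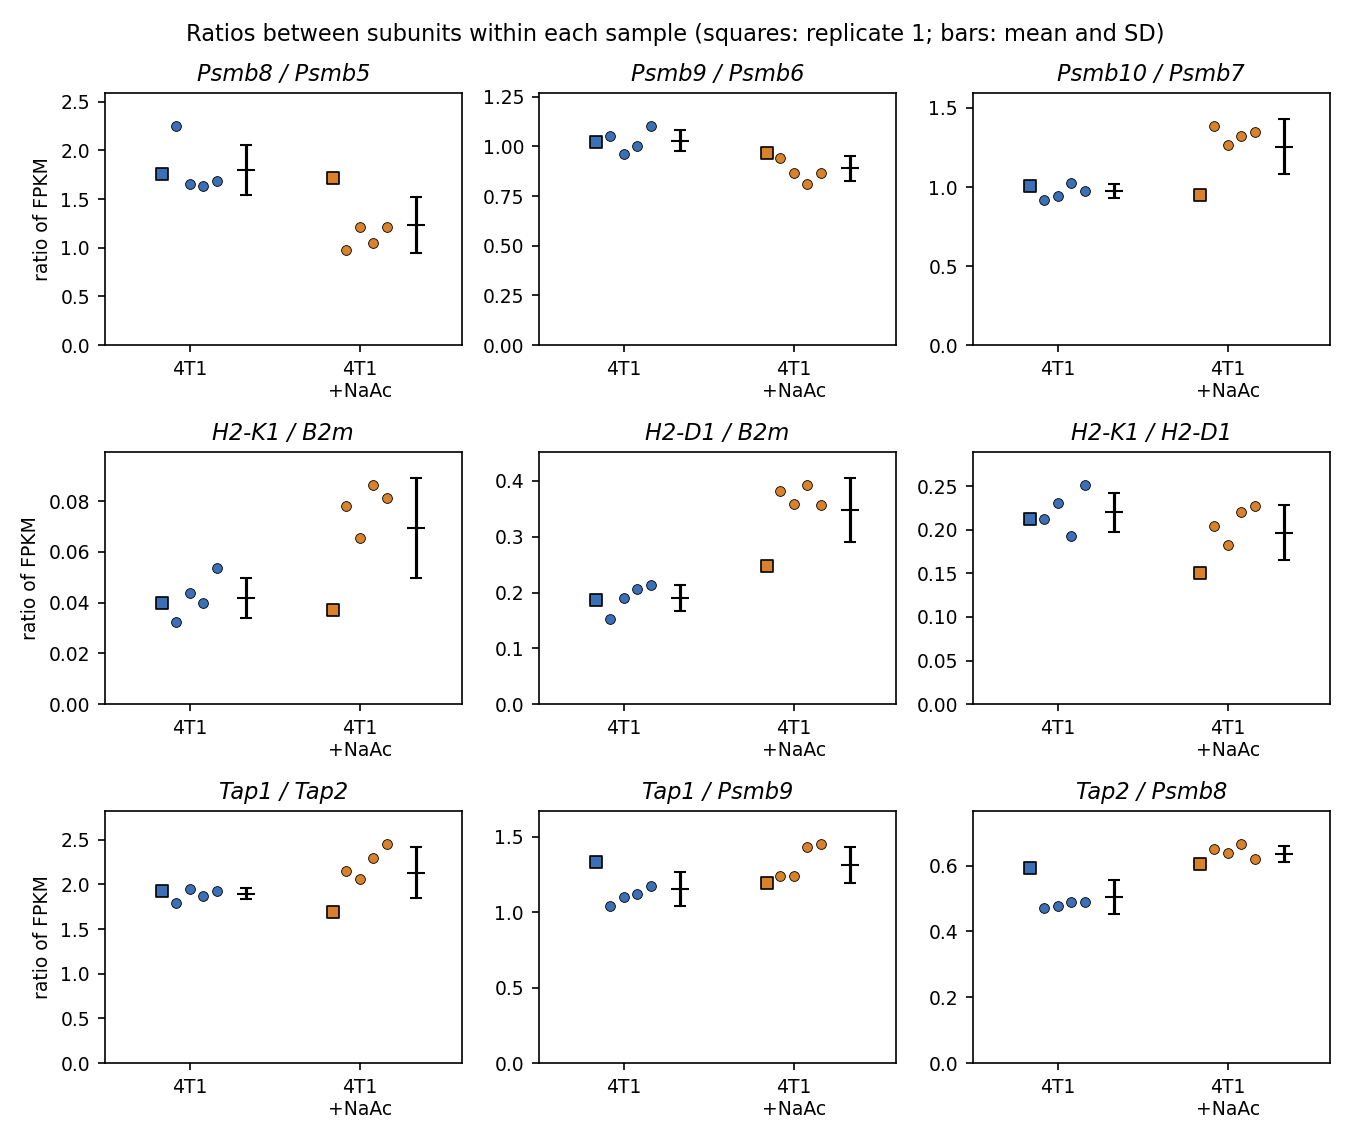
Ratios of FPKM between genes of the same sample (y axis, from 0; colors and bars as for the levels, squares are replicate 1). Only H2-D1 to B2m and Tap2 to Psmb8 have groups that do not overlap, both higher in CD8+4T1+NaAc.

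Psmb9 and Tap1 start head to head in the stretch printed above, and Psmb8 and Tap2 follow Tap1 on the same chromosome in the MHC class II region. The ratio of Tap2 to Psmb8 was 0.594, 0.472, 0.477, 0.488 and 0.490 in CD8+4T1. The ratios with sodium acetate were 0.605, 0.651, 0.638, 0.665 and 0.620. The groups did not overlap, and the log2 difference was 0.34 (exact permutation p = 0.00794, adjusted p = 0.0357). It no longer passed when any of the 6 samples named for H2-D1 to B2m was left out (adjusted p up to 0.0714). The groups stayed apart in these cases too, and the test is coarser with fewer splits. The difference itself stayed at 0.32 to 0.40 with each sample left out in turn. For Tap1 to Psmb9 the log2 difference of 0.18 did not pass (exact permutation p = 0.0714, adjusted p = 0.0918). With each sample left out in turn it was 0.15 to 0.24 and passed in 1 of 10 cases (exact permutation test, adjusted p = 0.0476). The listed spans of Tap1 and Psmb9 overlap by 212 bases on opposite strands, and the strand setting of the counting is not given in the sources used here.

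Nlrc5 encodes the transactivator that acts on class I promoters. Its FPKM were 40.2, 41.0, 41.1, 38.3 and 40.3 in CD8+4T1. With NaAc the values were 40.0, 48.8, 46.6, 52.8 and 48.5. Replicate 1 of CD8+4T1+NaAc lay within the CD8+4T1 range and the other 4 samples lay above it. Nlrc5 rose from 40.2 ± 1.12 to 47.4 ± 4.69 FPKM (SD, n = 5; log2 fold change 0.23, standard error 0.07, limma adjusted p = 0.0204). H2-D1 was the only other gene of the 10 that was called higher in the FPKM as listed.

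By position, 7 of the 10 genes are listed on chromosome 17, B2m on chromosome 2, and Psmb10 and Nlrc5 on chromosome 8. The table lists H2-K1 (ENSMUSG00000061232) from 34214991 to 34219321, H2-D1 (ENSMUSG00000073411) from 35481706 to 35486475, and Psmb8 (ENSMUSG00000024338) from 34416695 to 34420428 on chromosome 17. It lists B2m (ENSMUSG00000060802) from 121978167 to 121983564. These positions belong to a genome build that is not given in the sources used here and that is not GRCm38.

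On the scale of FPKM, the order of mean levels in CD8+4T1 was B2m, H2-D1, Psmb8, Tap1, Psmb9, H2-K1, Tap2, Tapbp, Psmb10 and Nlrc5. Psmb8 and Tap1, Psmb9 and H2-K1, H2-K1 and Tap2, Tap2 and Tapbp, and Tapbp and Psmb10 overlapped between samples. In CD8+4T1+NaAc the order was B2m, H2-D1, Tap1, H2-K1, Psmb9, Psmb8, Tapbp, Nlrc5, Tap2 and Psmb10. There the ranges of B2m, H2-D1 and Tap1 were apart from one another, as were those of Psmb8 and Tapbp, while all other neighbours overlapped. Each FPKM refers to the listed gene length, which is 860 bases for B2m and 3381 bases for Psmb8, so the order depends on these lengths.

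The direction of the smaller changes depended on the scaling of the samples, and the call of B2m was lost only with scaling to the CD3 complex. No call among the 10 genes changed when samples were scaled by the median ratio of their genes (median of all genes -0.03). The same held with limma's voom on fragment numbers recovered from the FPKM (median of all genes 0.08). In the FPKM as listed, all genes tested had a median change of -0.02 (log2), and it was 0.16 when every sample was rescaled to the same total and 0.15 when samples were scaled to the T cell marker genes. With rescaling to the same total, H2-D1 (0.60), Nlrc5 (0.41), B2m (-0.26) and Psmb8 (-0.43) kept their direction and their call, and by this scaling 31.2% of all genes tested were called higher and 8.80% lower. Tap2 (-0.09), Psmb9 (-0.12) and Psmb10 (-0.16) kept their direction but no longer passed, and the uncalled changes of Tap1 (0.06) and Tapbp (0.05) turned positive. Scaled to the CD3 complex, the median of all genes was 0.34, and 5 of the 10 genes were called higher and 1 lower, against 49.4% higher and 3.66% lower of all genes tested. H2-D1 (0.79), Nlrc5 (0.60) and Psmb8 (-0.25) kept their call there, B2m (-0.08) lost it, and Tap1, Tap2, Tapbp, Psmb9 and Psmb10 turned positive. A scaling moves all genes of a sample alike, so the place of a gene relative to the median is nearly fixed. In the FPKM as listed it was -0.42 for B2m, -0.59 for Psmb8 and 0.44 for H2-D1.

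**Figure D3:**
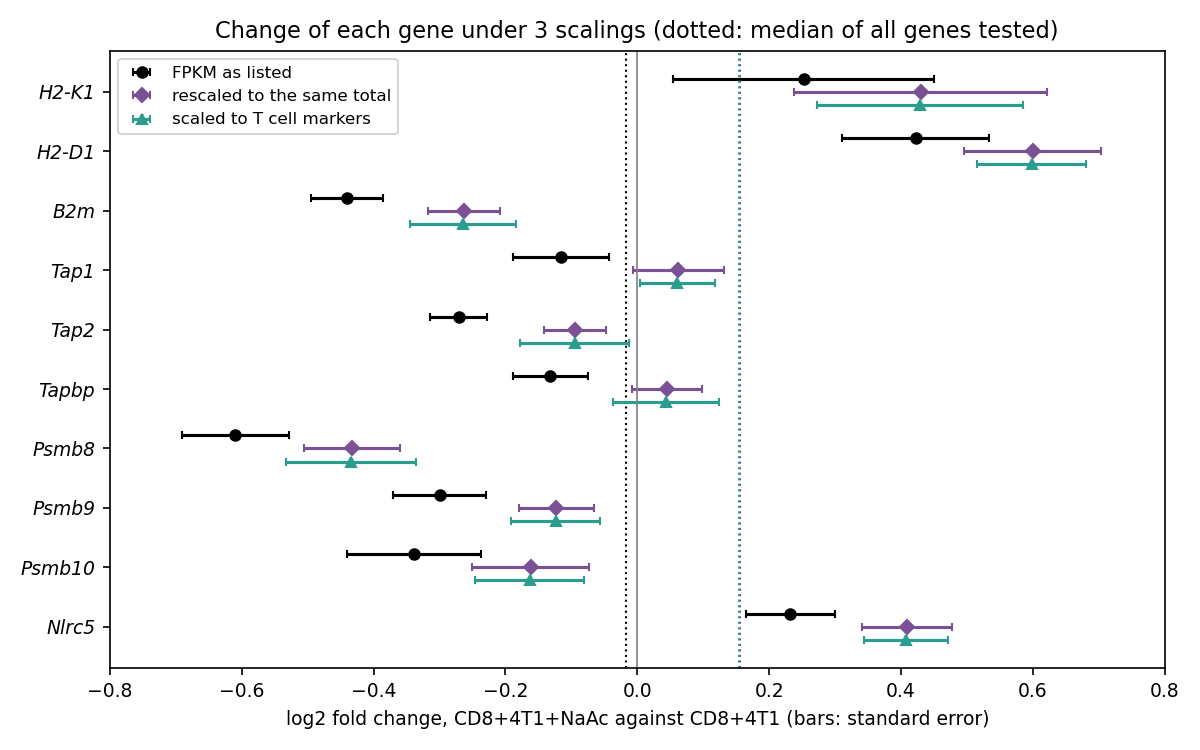
Log2 fold change of each gene (x axis, bars are standard errors) with the FPKM as listed, rescaled to the same total, and scaled to the T cell marker genes; dotted lines are the median of all genes tested under each scaling. B2m and Psmb8 lie left of 0 and H2-D1, H2-K1 and Nlrc5 right of it under all 3 scalings, and Tap1 and Tapbp cross 0.

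Markers of other cells moved with the groups. Of 20 epithelial and 4T1 marker genes, 12 were measured, 7 of these rose and 0 fell, with Lcn2 at 3.99 ± 1.47 and 40.2 ± 16.4 FPKM and Krt8 at 3.42 ± 1.69 and 34.2 ± 13.1 FPKM (SD, n = 5). Spint2, also on the list, had 20.7 ± 0.417 and 19.2 ± 1.40 FPKM and did not pass (limma adjusted p = 0.141). The summed FPKM of the list was 33.6 to 42.8 in CD8+4T1 and 88.8 to 202 in CD8+4T1+NaAc. In the FPKM as listed, 17.6% of all genes tested were called higher and 19.0% lower. Of 10 T cell marker genes, 5 fell (Cd3d, Cd3e, Cd3g, Lck and Cd2) and 0 rose, and their summed FPKM was 918 to 1048 and 732 to 1025. On the rescaled values, 4 of these fell (all but Cd2) and 3 rose (Cd8a, Cd8b1 and Trac), and scaled to the markers themselves 1 was called lower and 2 higher. Of all genes, the rescaled values called 31.2% higher and 8.80% lower, and the scaling to T cell markers 27.6% higher and 6.96% lower. None of the T cell markers was at 0, with Trbc2 at 299.7 ± 25.2 and 289 ± 64.6 FPKM and Cd8b1 at 147 ± 9.0 and 167 ± 24.4 FPKM, and neither of these passed the test in the FPKM as listed. Tumor and T cells both express class I genes, and the part of a changed cell mixture in the differences above was not tested. The listed genes held 95.5% to 97.9% of the fragments in CD8+4T1 and 89.8% to 92.1% in CD8+4T1+NaAc, of 16306447 to 17443395 and 16503701 to 18853726 fragments per sample. CD8+4T1+NaAc replicate 1 had the fewest genes above 0 (20233), and the other 9 samples had 22291 to 25088.

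Samples of a group also varied together in part of the pathway. After each group's mean was removed, log2(FPKM + 0.1) of H2-K1 correlated across the 10 samples with Tap1 (Pearson r 0.95), H2-D1 (0.90) and Nlrc5 (0.81), and Psmb9 with Psmb10 (0.85). B2m ran the other way, with r of -0.66 to H2-K1 and -0.65 to Nlrc5. These values are a description of 10 samples, of which CD8+4T1+NaAc replicate 1 was low for H2-K1, H2-D1, Tap1 and Nlrc5 at once, and genes of a sample share its library and its scaling. That sample was also the lowest of its group for Psmb9 and Psmb10 and the highest for B2m, Tap2, Tapbp and Psmb8. Between samples of a group, B2m varied least in relative terms among the heavy and light chains, with a coefficient of variation of 3.73% in CD8+4T1 and 4.69% in CD8+4T1+NaAc, against 14.9% and 26.4% for H2-K1.

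**Figure D4:**
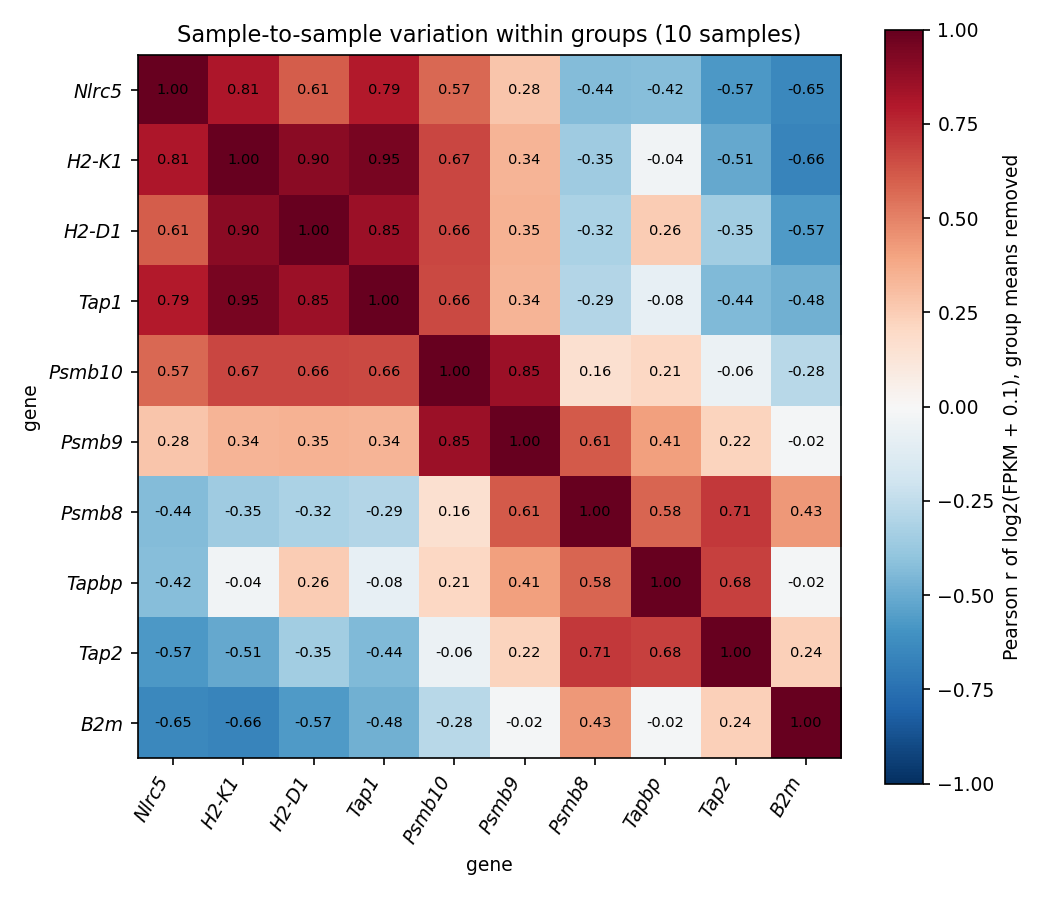
Pearson r between the 10 genes across 10 samples, computed on log2(FPKM + 0.1) after removing each group's mean, with red for positive and blue for negative values. H2-K1, H2-D1, Tap1 and Nlrc5 form one block of positive values (0.61 to 0.95), Psmb8, Tapbp and Tap2 another (0.58 to 0.71), and B2m is negative to Nlrc5, H2-K1, H2-D1 and Tap1.

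The partners of peptide loading are chaperones and enzymes of the endoplasmic reticulum. Of 8 such genes, 4 fell (Bcap31, Tapbpl, Pdia3 and Canx), 1 rose (Uggt1) and 3 did not pass. Among all genes tested, 17.6% were called higher and 19.0% lower. Bcap31, a cargo receptor of the endoplasmic reticulum, went from 113 ± 6.37 to 80.8 ± 4.13 FPKM (SD, n = 5; log2 fold change -0.48, limma adjusted p = 0.0001). Tapbpl, the tapasin-like peptide editor TAPBPR, had a log2 fold change of -0.32 (limma adjusted p = 0.0289). The chaperone Calr had 330.0 ± 18.4 and 316 ± 28.6 FPKM and did not pass (limma adjusted p = 0.509). Uggt1, a glucosyltransferase of glycoprotein quality control, rose by 0.24 on the log2 scale (limma adjusted p = 0.0041). After rescaling to the same total, 1 of the 8 was called lower and 2 higher, against 31.2% higher and 8.80% lower among all genes.

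Among 7 peptidases that trim class I peptides, 3 fell (Erap1, Blmh and Npepps) and 1 rose (Thop1). The shares of all genes tested were 17.6% higher and 19.0% lower. Erap1, the aminopeptidase of the endoplasmic reticulum, went from 13.6 ± 0.996 to 10.3 ± 1.27 FPKM (SD, n = 5; log2 fold change -0.41, limma adjusted p = 0.00447) without overlap of the groups. Thop1, a cytosolic endopeptidase that destroys peptides, had a log2 fold change of 0.41 (limma adjusted p = 0.0304). After rescaling to the same total, 0 of the 7 were called lower and 1 higher (against 31.2% higher and 8.80% lower among all genes), and the adjusted p of Erap1 was 0.059.

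Of 8 genes for proteasome activators and assembly factors, 3 fell (Psmg1, Pomp and Psme3) and 0 rose. The shares of all genes tested were 17.6% higher and 19.0% lower. Pomp, the maturation factor of the proteasome, had a log2 fold change of -0.34 (limma adjusted p = 0.000587) and the chaperone Psmg1 one of -0.37 (limma adjusted p = 0.0014). Psme1 and Psme2 encode the interferon-inducible PA28 activator. They had log2 fold changes of -0.16 and -0.37, which did not pass (limma adjusted p = 0.185 and 0.102). After rescaling to the same total, 2 of the 8 were called lower and 1 higher, against 31.2% higher and 8.80% lower among all genes.

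Other class I and class I-like genes went both ways. Of 16 measured, 4 rose (Fcgrt, Cd1d1, H2-Q10 and H2-T10), 2 fell (H2-T23 and H2-M3) and 10 did not pass. Among all genes tested, 17.6% were called higher and 19.0% lower. H2-T23, which encodes the nonclassical Qa-1 molecule, went from 109 ± 7.38 to 79.9 ± 7.37 FPKM (SD, n = 5; log2 fold change -0.45, limma adjusted p = 0.000793), and the groups did not overlap. H2-M3, which presents formylated peptides, had a log2 fold change of -0.44 (limma adjusted p = 0.00504). Fcgrt, the heavy chain of the neonatal Fc receptor that also pairs with beta-2-microglobulin, rose from 0.445 ± 0.137 to 1.41 ± 0.458 FPKM (log2 fold change 1.46, limma adjusted p = 0.00128). The levels of Fcgrt and Cd1d1 were low beside those of the classical heavy chains, and H2-Q10 and H2-T10 share sequence with other class I genes, so their values are uncertain. After rescaling to the same total, 9 of the 16 were called higher and 2 lower, against 31.2% higher and 8.80% lower among all genes.

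Of the 15 regulators of class I genes reported here, 8 fell and 7 did not pass, against 17.6% higher and 19.0% lower among all genes tested. Nlrc5, which rose, is counted among the 10 genes and not here, and these counts do not cover all regulators. The falls with the largest log2 fold changes were those of Nfya (-0.59, limma adjusted p = 9.8e-05), Irf2 (-0.50, adjusted p = 0.000294), Nfyb (-0.49, adjusted p = 3.1e-05) and Ezh2 (-0.42, adjusted p = 0.00011). Nfya and Nfyb encode subunits of NF-Y, which binds the CCAAT box, and Ezh2 encodes a histone methyltransferase of the Polycomb complex. Nfyc, another NF-Y subunit gene on the list, did not pass (log2 fold change 0.18, limma adjusted p = 0.113). It was called higher after rescaling to the same total (0.35, limma adjusted p = 0.00799). Irf1, an interferon-induced activator of class I and immunoproteasome genes, had 55.6 ± 2.42 and 55.1 ± 5.45 FPKM and did not pass (log2 fold change -0.02, limma adjusted p = 0.875). After rescaling to the same total, 5 of the 15 were called lower and 2 higher, against 31.2% higher and 8.80% lower among all genes. Scaled to the CD3 complex, 5 of the 15 were called higher and 0 lower, against 49.4% and 3.66% of all genes.

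Of 6 genes for interferon-gamma, its receptor and signaling, 2 rose and 0 fell, against 17.6% higher and 19.0% lower among all genes tested. Ifngr1, the ligand-binding receptor chain, rose from 26.6 ± 1.27 to 36.7 ± 3.45 FPKM (SD, n = 5; log2 fold change 0.46, limma adjusted p = 0.000383). Socs1, a feedback inhibitor of the receptor, had a log2 fold change of 0.76 (limma adjusted p = 0.00936). Ifng itself had 481 ± 61.6 and 408 ± 107 FPKM and did not pass (log2 fold change -0.27, limma adjusted p = 0.243). After rescaling to the same total, 3 of the 6 were called higher and 0 lower, against 31.2% higher and 8.80% lower among all genes. The median log2 fold changes of the lists other than the regulators lay between -0.19 for the activators and assembly factors and 0.18 for the other class I genes, against -0.02 over all genes tested.

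**Figure D5:**
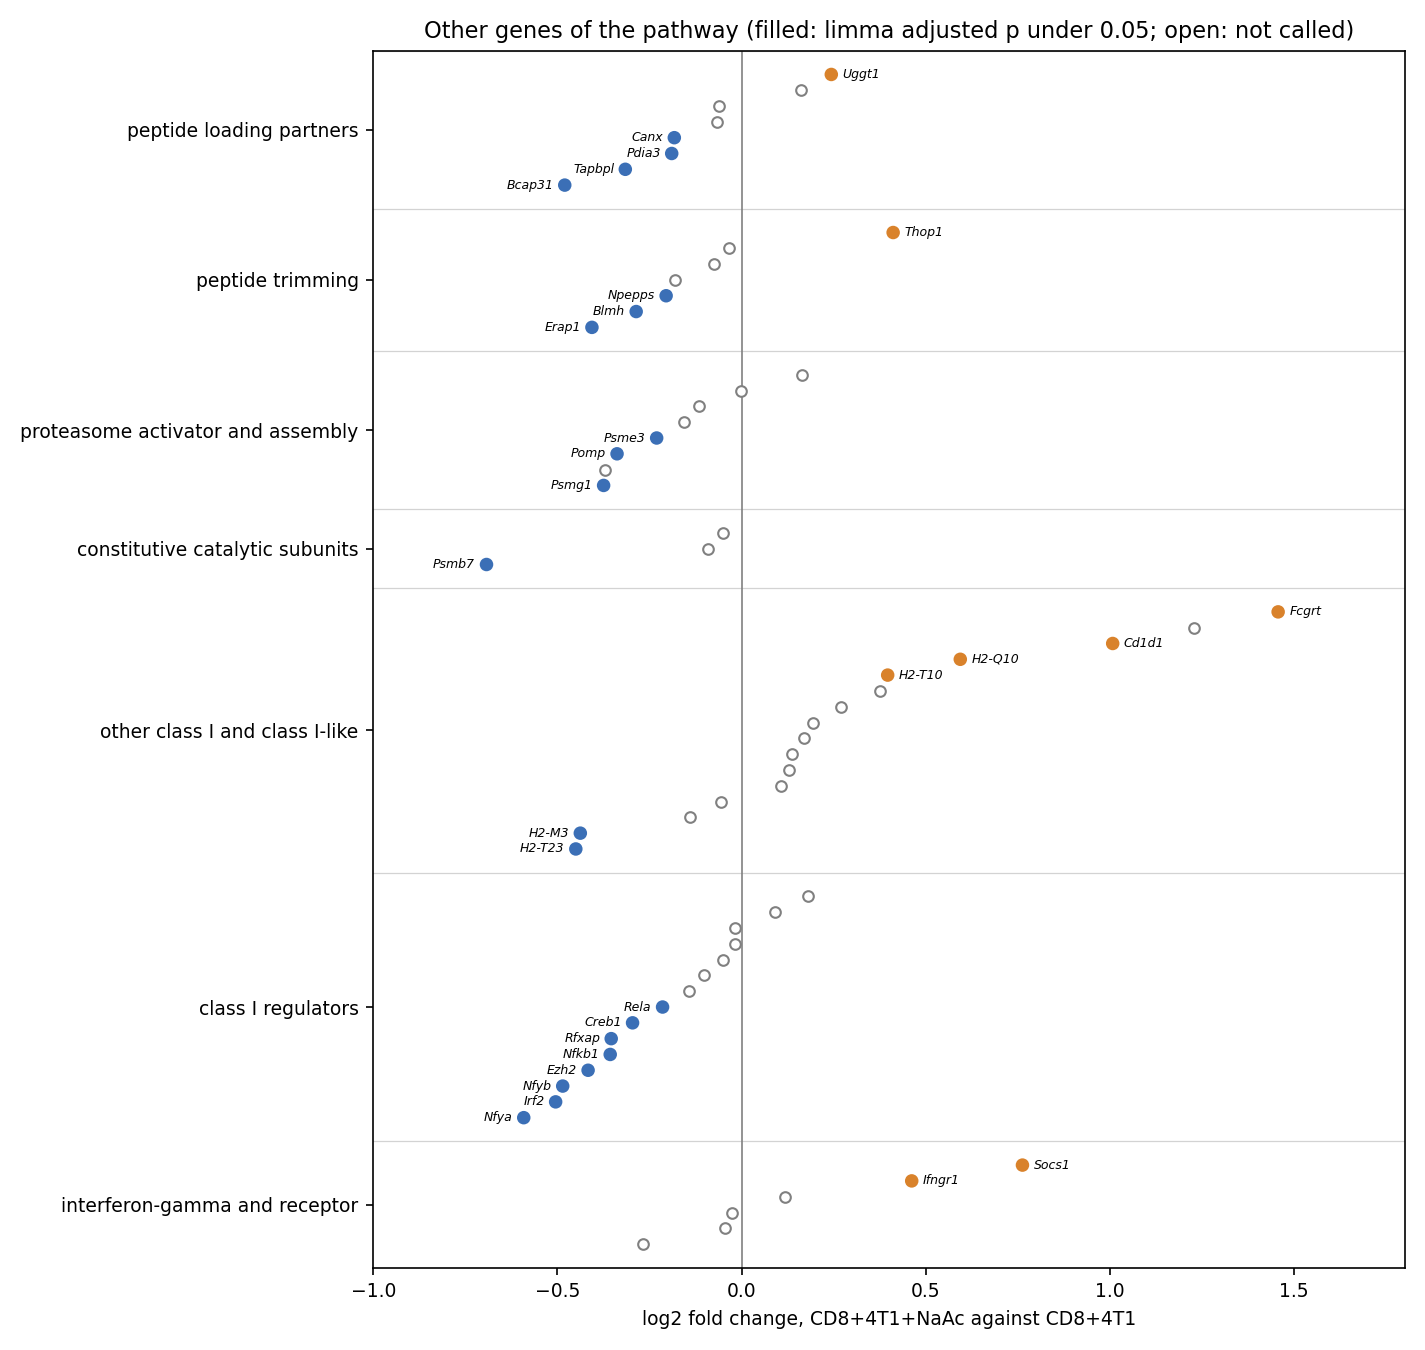
Log2 fold change (x axis) of each measured gene of the 7 other lists of the pathway, with filled points for genes called by limma (blue lower, orange higher) and open points for those not called. In these values, on the FPKM as listed, the called interferon-gamma pathway genes are higher, and the regulators shown, which leave out Nlrc5, are not all regulators of class I genes.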

How the data were processed

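The authors deposited FPKM, 1 column per sample and not pooled, with a listed gene length in bases (an other, unnormalized column). The submitters' processing notes name fastp, HISAT2 2.0.5, StringTie 1.3.3b and featureCounts 1.5.0-p3, and the methods name DESeq2 for the comparison. Genome build, annotation and strand setting are not given in the sources used here: of 52073 genes shared with the GRCm38 annotation, 1467 have the same position. FPKM times length gave whole numbers of fragments in 100% of entries (within 0.1): 971 to 27267 per sample for the 10 genes.

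FPKM are not counts, so limma 3.58.1 (R 4.3.3) was used with trend and robust moderation, group as the only term, on log2(FPKM + 0.1) for genes whose mean FPKM reached 0.5. Single genes and ratios were compared by exact two-sided permutation tests over all 252 splits of 5 against 5 samples, whose smallest p is 0.00794. Ratios were adjusted by Benjamini-Hochberg over 9. The fit was tested on simulated data: it missed the first target for the share of changed genes recovered, which was then replaced by limits on bias and on false calls. Motifs were searched in RefSeq promoter windows of GRCm38.p6. Other entries of the table annotated with the same protein held 1.97% of the fragments of H2-K1 and 1.91% of those of H2-D1.

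The genes and lists were chosen with earlier results of these data known. Named genes are the 10 members, Psmb5, Psmb6, Psmb7, from each pathway list at most the 4 called genes with the largest change and a mean of at least 1 FPKM, from each marker list at most the 2 with the highest mean, and Irf1, Ifng, H2-T23, Psme1, Psme2, Calr and Erap1. A further regulator is not reported here. Genes named to account for a count, among them Fcgrt, Cd1d1, Canx, Nfyc, Krt8, Lyz2, H2-Ab1 and Tyrobp, fall outside this rule and were chosen after their values were seen. Alternatives were other pseudocounts, filters, scalings, thresholds and limma settings, the replicate block and leaving out samples. Scaling to the CD3 complex, rescaling with a sample left out, the rescaled list counts and a pair of motifs were added after seeing the data. Figures were drawn with matplotlib 3.10.9.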

Additional observations from a re-analysis of the deposited data

Results flagged for a closer look

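A sample was looked at again where it was the highest or lowest of its group and stood off from the next sample by over 0.71 of the group's range, the 95% limit for 5 samples. Of 50 groups of values checked, 11 passed this limit, and chance alone gives 2.5.

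CD8+4T1+NaAc replicate 1 was the lowest sample of its group in the number of genes above 0 (20233 against 24681 in the next sample, gap 0.916 of the range), in H2-D1 (337 FPKM, gap 0.864) and in Psmb6 (72.9 FPKM, gap 0.771). It was also the lowest for the ratios H2-D1 to B2m (0.248, gap 0.796) and Psmb10 to Psmb7 (0.951, gap 0.763). CD8+4T1 replicate 1 was the lowest of its group in genes above 0 (22291 against 23786, gap 0.848), in Psmb9 (79.5 FPKM, gap 0.836) and in Psmb8 (92.6 FPKM, gap 0.720), and the highest for the ratio Tap2 to Psmb8 (0.594, gap 0.837). CD8+4T1 replicate 2 was the highest for Psmb8 to Psmb5 (2.25, gap 0.777). CD8+4T1+NaAc replicate 2 had the most fragments (18853726, gap 0.747).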

How the results depend on the processing

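With each sample left out in turn, the limma log2 fold changes stayed within -0.46 to -0.42 for B2m, 0.36 to 0.52 for H2-D1, 0.17 to 0.44 for H2-K1, 0.19 to 0.29 for Nlrc5, -0.40 to -0.25 for Psmb10, -0.68 to -0.58 for Psmb8, -0.36 to -0.27 for Psmb9, -0.15 to -0.05 for Tap1, -0.29 to -0.26 for Tap2 and -0.16 to -0.10 for Tapbp, with 2 to 3 genes called higher and 4 to 5 lower. The ratios stayed within 0.79 to 0.98 (H2-D1 to B2m), 0.60 to 0.90 (H2-K1 to B2m), -0.23 to -0.08 (H2-K1 to H2-D1), 0.32 to 0.45 (Psmb10 to Psmb7), -0.69 to -0.48 (Psmb8 to Psmb5), -0.24 to -0.18 (Psmb9 to Psmb6), 0.15 to 0.24 (Tap1 to Psmb9), 0.10 to 0.24 (Tap1 to Tap2) and 0.32 to 0.40 (Tap2 to Psmb8). H2-D1 to B2m and Tap2 to Psmb8 no longer passed (exact permutation test, adjusted p up to 0.0714) without CD8+4T1 replicate 2, 4 or 5 or CD8+4T1+NaAc replicate 3, 4 or 5, and Psmb9 to Psmb6 without these or CD8+4T1 replicate 1. With fewer splits the p-values are coarser, and for H2-D1 to B2m and Tap2 to Psmb8 the groups stayed apart in each case.

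Rescaled to the same total, Psmb10 (-0.16), Psmb9 (-0.12) and Tap2 (-0.094) no longer passed, Tap1 (0.062) and Tapbp (0.045) reversed, and 2 genes were called lower. Scaled to T cell markers, the values were -0.16, -0.12, -0.095, 0.061 and 0.044, again with 2 called lower. With scaling by the median ratio and with voom on recovered fragments, no call among the 10 genes changed. Psmb10 (-0.36 and -0.24), Psmb9 (-0.32 and -0.21) and Tap2 (-0.29 and -0.18) passed in both. Scaled to the CD3 complex (added after seeing the data; median of all genes 0.34), B2m (-0.076) no longer passed, H2-K1 (0.62) passed, Psmb10 (0.025), Psmb9 (0.064), Tap1 (0.25), Tap2 (0.093) and Tapbp (0.23) reversed, and 5 genes were called higher and 1 lower. Rescaled without CD8+4T1+NaAc replicate 1 (also added), H2-K1 (0.61) passed, Psmb10 (-0.084) and Psmb9 (-0.10) did not, Tap1 (0.12) and Tapbp (0.026) reversed, and 3 were called lower. At an adjusted p under 0.01, H2-D1 (0.42), Nlrc5 (0.23) and Psmb10 (-0.34) were lost, leaving 0 called higher. With sample weights H2-K1 (0.35) and Tapbp (-0.14) passed. Without replicate 1 of both groups, H2-K1 (0.42), Tapbp (-0.17) and the ratios H2-K1 to B2m (0.89), Psmb10 to Psmb7 (0.46), Psmb8 to Psmb5 (-0.69), Tap1 to Psmb9 (0.27) and Tap1 to Tap2 (0.24) passed. Scaled to the CD3 complex, 5 of 8 loading partners, 3 of 7 peptidases and 3 of 8 activators and assembly factors were called higher. So were 12 of 16 other class I genes, 5 of 15 regulators and 4 of 6 interferon-gamma genes. In these lists 0 genes were called lower, against 49.4% higher and 3.66% lower among all genes. The cause of these changes was not tested.

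After each group's mean was removed from every gene tested, same-numbered samples correlated between -0.03 and 0.07. Samples of the same number were therefore not treated as pairs. With the replicate block limma called 5399 genes and no call among the 10 genes changed; the ratios H2-D1 to B2m (0.86), Psmb9 to Psmb6 (-0.21) and Tap2 to Psmb8 (0.34) could not pass, since 5 pairs allow no p under 0.0625.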

Other observations

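MHC class II molecules present peptides to CD4+ T cells and are made mainly by antigen-presenting cells. Of 5 class II genes measured, 3 rose (H2-Aa, H2-Eb1 and Cd74) and 0 fell, against 17.6% higher and 19.0% lower among all genes tested. With rescaling to the same total, 4 of the 5 were called higher, as were 31.2% of all genes. Their summed FPKM was 26.3 to 31.8 in CD8+4T1 and 44.1 to 48.2 in CD8+4T1+NaAc, without overlap. Cd74, the invariant chain, rose from 11.03 ± 1.05 to 22.1 ± 1.61 FPKM (SD, n = 5; log2 fold change 1.0, limma adjusted p = 1.5e-05), while H2-Ab1 had 5.86 ± 0.995 and 5.40 ± 0.726 FPKM and did not pass (log2 fold change -0.11, limma adjusted p = 0.583). H2-DMa, a chain of the peptide editor, had a log2 fold change of 0.18 that did not pass (limma adjusted p = 0.0531).

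Markers of other cell types differed widely in level. Among all genes tested, 17.6% were called higher and 19.0% lower, and the counts of these short lists are given beside that share. Of 3 B cell genes measured, 0 were called, with Ighm at 9.10 ± 0.680 and 11.3 ± 2.58 FPKM (limma adjusted p = 0.162). Cd79b (log2 fold change 0.54, limma adjusted p = 0.0187) and Ighm (0.45, adjusted p = 0.026) were called higher after rescaling to the same total, as were 31.2% of all genes. Of 3 macrophage and dendritic cell genes measured, 1 rose (Lyz2, from 0.536 ± 0.270 to 1.12 ± 0.385 FPKM), while the more abundant Cd68 had 25.8 ± 2.97 and 22.8 ± 1.73 FPKM and did not pass (limma adjusted p = 0.133). Of 3 genes of CD4 T cells, 1 rose (Cd4, from 0.541 ± 0.169 to 1.6 ± 0.187 FPKM), while Zbtb7b had 13.5 ± 0.602 and 12.4 ± 2.41 FPKM and did not pass (limma adjusted p = 0.385). Of 2 fibroblast genes measured, 1 rose (Pdgfra, from 0.149 ± 0.0688 to 1.16 ± 0.409 FPKM), and Col3a1 was listed at 0 in all samples. The 4 NK cell genes were all below the filter in the FPKM as listed, and Tyrobp passed it and was called higher after rescaling to the same total (log2 fold change 1.54, limma adjusted p = 0.0312). The part of these cells in the values of the class I genes was not tested.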
